A study of Mus musculus with 4 samples.

Results

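The enterohepatic bile acid axis was examined as 10 genes in a map of SHP on chromatin from the mouse small intestine. The genes were Fgf15, Nr0b2, Nr1h4, Nr5a2, Fgfr4, Klb, Slc10a2, Fabp6, Slc51a and Slc51b, chosen by name out of 21887 protein-coding genes in the RefSeq annotation of mm10. All wild-type peaks with a summit within 50 kb of either end of a gene were collected, and a gene was counted as occupied when a summit lay within 5 kb of an end. Chromatin immunoprecipitation with sequencing (ChIP-seq) had been carried out with a Santa Cruz Biotech antibody against SHP on SHP-KO mice and on C57BL/6 mice as wild type, all 8 to 12 weeks old. Every mouse had been fasted for 12 h and refed normal chow for 4 h, so neither a fasted nor an untreated group was available here. Jejunum and ileum were collected together, and 3 sets of immunoprecipitated and input DNA, each pooled from 3 mice, were analysed per the labels' protocols. The knockout allele is not described in the labels.

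One peak list was deposited for the immunoprecipitation of each genotype, with 7 peaks in knockout mice and 5775 in wild-type mice. There were no replicate lists, so no value below carries a replicate error and no test between genotypes was made. The lists carry no read counts, and read depth is unknown. A peak list holds no expression values, so neither the loss of Nr0b2 nor the tissue could be checked against marker genes. The enrichment value of a peak is the authors' own signal column, without a stated scale. Over the wild-type peaks it had a median of 5.65, with the middle 50% between 4.93 and 6.46. The −log10 p had a median of 14.8.

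Bile acids return from the gut to the liver through the ileum. In ileal enterocytes they activate the nuclear receptor FXR, which induces the hormone FGF15 and the regulator SHP, and FGF15 travels to the liver to lower bile acid synthesis. SHP has no DNA-binding domain of its own and reaches chromatin through partners, among which LRH-1 is the best known in bile acid control.

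Most SHP summits around these genes lay at neighbouring genes. Of the 10 genes, 1 was occupied (Klb, 10%, 95% exact interval 0.253 to 44.5), against 26.4% of all protein-coding genes, a share that lies inside that interval. None of the 10 had a summit closer than 1 kb, against 20.7% of all protein-coding genes. Around 8 of the 10 there was at least 1 peak within 50 kb, against 48.2% of all protein-coding genes, and these windows held 16 peaks in all. Only 2 of the 16 lay nearest to a gene of the axis, and both were inside Nr5a2. The other 14 were nearest to a neighbouring gene, and 10 of them had a summit within 1 kb of an annotated transcription start. The 50 kb windows held from 0 (Nr5a2 and Slc10a2) to 7 (Nr0b2) other protein-coding genes. The share of peaks nearest to a neighbour was not computed for the windows of other genes. Nor was the share within 1 kb of an annotated start computed over all peaks. Whether these counts are particular to the axis genes was therefore not tested. No knockout peak lay within 50 kb of any of the 10 genes, and only Fgf15, Fabp6 and Slc51b shared a chromosome with one, at 24.1, 54.4 and 13.3 Mb. The knockout list held 7 peaks genome-wide and carries another filter name, so the genotypes were not compared gene by gene.

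**Figure D1:**
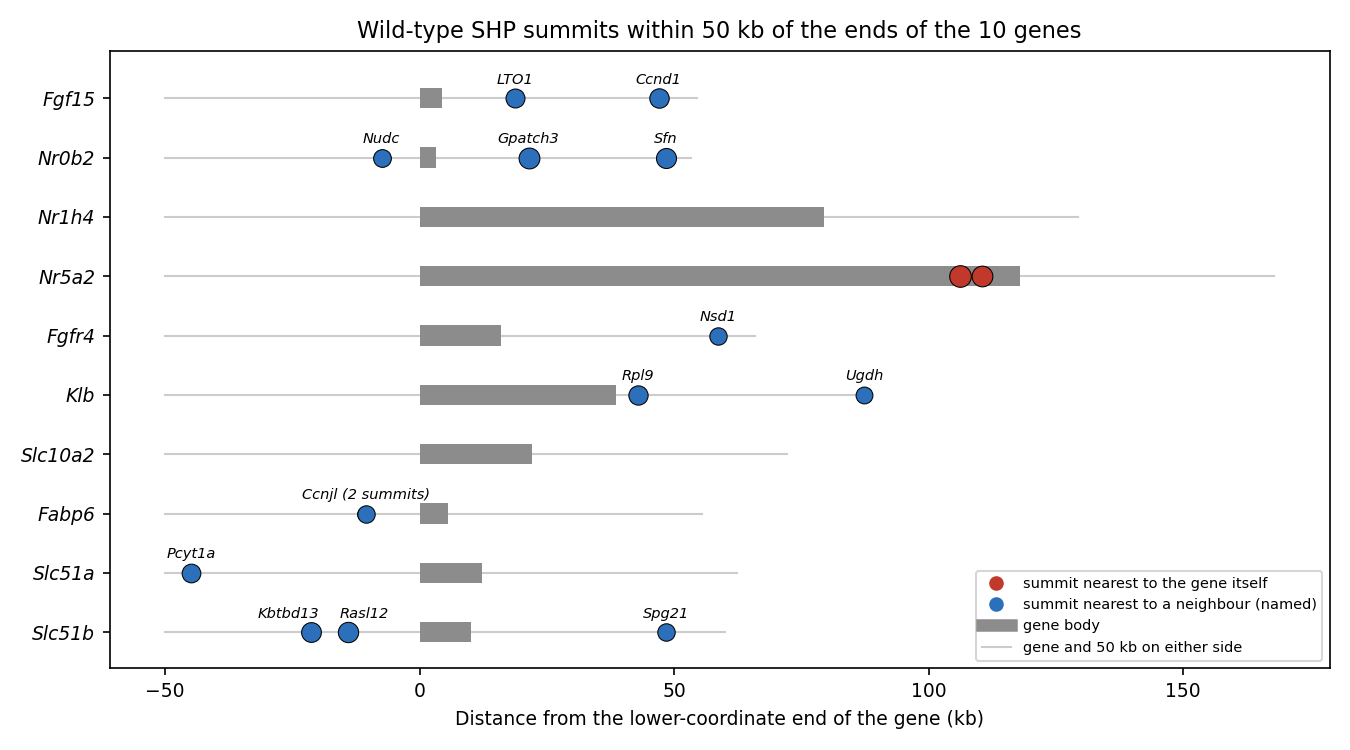
Position of wild-type SHP summits around the 10 genes, with distance in kb from the lower-coordinate end of each gene on the horizontal axis, gene bodies as grey bars, 1 gene per row, and circle area scaled to the enrichment value. Red circles are the 2 summits nearest to the gene itself, both inside Nr5a2, and blue circles are the 14 summits nearest to the neighbour named above them.

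Fgf15 encodes the hormone of the axis, the mouse counterpart of human FGF19. The gene spans chr7:144896532-144900953. Its nearest summit was 14284 bp away, in a peak at chr7:144914898-144915685 with an enrichment value of 5.91 and a −log10 p of 15.4. That summit was 137 bp inside LTO1, whose product is needed for maturation of a ribosome recycling factor in yeast, and the peak covered the start of LTO1. The second peak of the region, at chr7:144942377-144943677, had an enrichment value of 6.21 and a −log10 p of 14.4. Its summit lay between genes, 42520 bp from Fgf15 and 3642 bp from Ccnd1, which encodes cyclin D1. Of all protein-coding genes, 33.4% had a summit as near as that of Fgf15 or nearer. The enrichment value and −log10 p of the first peak were common to 40 peaks of the list, itself included.

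Nr0b2, which encodes SHP itself, lies on the plus strand at chr4:133553376-133556686. Its nearest summit was 7456 bp before the transcription start, in a narrow peak of 412 bp with an enrichment value of 5.18 and a −log10 p of 15.1. This peak, at chr4:133545657-133546068, covered the start of Nudc, a gene of the dynein pathway on the other strand, whose start was 107 bp from the summit. The strongest peak near Nr0b2, at chr4:133574283-133575272, had an enrichment value of 7.13 and a −log10 p of 20.9, the highest −log10 p of the 16 peaks. It lay 18081 bp past the end of Nr0b2 and 22 bp inside Gpatch3, which encodes a protein with a G-patch domain. A further peak, 45075 bp past the end with an enrichment value of 6.59, lay inside Sfn, which encodes the sigma form of the 14-3-3 proteins. None of these summits was within 5 kb of Nr0b2, and each was within 407 bp of an end of its neighbour.

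The promoter windows of Nudc and Nr0b2 are shown because the nearest peak lay on the first and not on the second. Both are RefSeq windows of the build GRCm38.p6 (mm10), read 5′ to 3′ on the strand of the gene with the 250 bases before the start and the 50 from it on. Capitals mark every match to the motifs named further below. The Nudc window, chr4:133545978-133546277 on the minus strand, held 3 GC boxes. The Nr0b2 window, chr4:133553126-133553425 on the plus strand, held 1 E box, 1 GC box and 1 TATA match at position −28 from the start.
Nudc: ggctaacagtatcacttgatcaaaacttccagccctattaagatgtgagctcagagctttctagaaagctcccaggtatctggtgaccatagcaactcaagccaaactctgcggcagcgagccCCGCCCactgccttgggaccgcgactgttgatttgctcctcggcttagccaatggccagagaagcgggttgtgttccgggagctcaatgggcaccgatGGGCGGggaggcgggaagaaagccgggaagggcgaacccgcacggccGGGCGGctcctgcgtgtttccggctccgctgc
Nr0b2: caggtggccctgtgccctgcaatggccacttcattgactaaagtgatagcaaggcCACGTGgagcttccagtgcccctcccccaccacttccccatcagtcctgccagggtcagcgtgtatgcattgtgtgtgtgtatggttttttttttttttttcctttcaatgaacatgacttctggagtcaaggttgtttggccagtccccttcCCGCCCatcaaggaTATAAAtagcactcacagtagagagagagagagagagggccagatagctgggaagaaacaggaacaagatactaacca

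Nr1h4 encodes FXR, the bile acid receptor that stands at the head of the axis. No summit lay inside the gene (chr10:89454234-89533645) or within 50 kb of it. The nearest was 152454 bp away, in a peak at chr10:89685548-89686600 with an enrichment value of 4.65, 218 bp from Scyl2, a gene of clathrin-dependent traffic. Of all protein-coding genes, 65.3% had a summit as near or nearer.

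Nr5a2, which encodes LRH-1, was the gene of the axis with peaks in its own body, and their enrichment values were the highest and the third of the 16, with the peak at Gpatch3 between them. The gene lies on the minus strand at chr1:136842562-136960448, and no other protein-coding gene reaches within 50 kb of it. The stronger peak, chr1:136948338-136949303, had an enrichment value of 7.70, which ranked 274 among 5775, and a −log10 p of 18.8. The other, chr1:136952689-136953334, had an enrichment value of 7.08 (rank 635) and a −log10 p of 15.2. Their summits were 4302 bp apart and lay 11736 and 7434 bp inside the gene, counted from its outer start. The annotation also gives Nr5a2 an inner start. The summits were 4918 and 616 bp downstream of that inner start, so that Nr5a2 had a summit within 1 kb of an annotated start although none was within 5 kb of a gene end. Among 17492 protein-coding genes with an annotated start, 22.1% had a summit within 1 kb of any of their starts. For 158 of them, as for Nr5a2, a summit was within 1 kb of an inner start and none within 5 kb of an end. Of all protein-coding genes, 20.0% had a summit inside the gene, and 408 (1.86%) had one inside while none was within 5 kb of an end. The other 9 genes of the axis had no summit inside.

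Both promoter windows of Nr5a2 are printed to set the inner start, 616 bp from a summit, beside the outer one. The inner window is chr1:136953581-136953880 and the outer chr1:136960399-136960698, both on the minus strand. The peak ended 246 bp short of the inner window and did not reach the outer one. The inner window matched none of the 9 motifs. The outer window held 1 TATA match and 1 AGGTCA site.
Nr5a2 inner start: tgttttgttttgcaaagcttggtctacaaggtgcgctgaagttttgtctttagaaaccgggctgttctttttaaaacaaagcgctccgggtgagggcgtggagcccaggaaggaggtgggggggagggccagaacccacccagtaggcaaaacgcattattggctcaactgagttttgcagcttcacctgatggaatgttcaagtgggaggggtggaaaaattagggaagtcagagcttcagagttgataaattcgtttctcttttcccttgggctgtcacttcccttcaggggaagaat
Nr5a2 outer start: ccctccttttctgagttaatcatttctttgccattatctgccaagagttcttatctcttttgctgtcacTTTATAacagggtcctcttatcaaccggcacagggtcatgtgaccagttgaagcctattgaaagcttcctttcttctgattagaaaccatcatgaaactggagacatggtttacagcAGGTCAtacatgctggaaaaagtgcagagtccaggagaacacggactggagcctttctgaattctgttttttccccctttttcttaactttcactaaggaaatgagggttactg

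Fgfr4 and Klb encode the receptor of FGF15 on hepatocytes and its co-receptor beta-Klotho, which are best known for their function in the liver rather than the gut. Klb (chr5:65348411-65386957, plus strand) was counted as occupied through a summit 4343 bp past the far end of the gene and 42889 bp from its start. The peak, chr5:65390586-65391731, was 1146 bp wide, with an enrichment value of 6.11 (rank 1973) and a −log10 p of 16.3. It covered the start of Rpl9, which encodes a protein of the large ribosomal subunit, and its summit was 131 bp inside that gene. An end of Lias, the lipoic acid synthase gene, was 197 bp from the same summit. Klb was therefore within the 5 kb limit but neither the nearest nor the second nearest gene. Such genes were common in the list. Of 5778 occupied protein-coding genes, 1191 (20.6%) were the nearest gene of no summit. A second peak lay 48836 bp from Klb, on the start of Ugdh, which encodes UDP-glucose dehydrogenase, with an enrichment value of 4.67.

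The Rpl9 window is shown because the peak that made Klb occupied lay on it. It is chr5:65391382-65391681 on the minus strand and held 1 AP-1 match and no AGGTCA site.
Rpl9: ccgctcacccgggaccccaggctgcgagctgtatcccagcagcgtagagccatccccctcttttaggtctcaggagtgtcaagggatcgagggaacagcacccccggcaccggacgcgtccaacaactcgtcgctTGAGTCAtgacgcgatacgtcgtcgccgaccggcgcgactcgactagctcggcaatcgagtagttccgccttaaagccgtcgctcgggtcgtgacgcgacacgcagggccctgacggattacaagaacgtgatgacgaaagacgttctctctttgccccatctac

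By enrichment value, width and distance to the gene end together, the occupied genes most like Klb were Cd151, Ccnl1 and 1520401A03Rik, among 5778 compared. Their strongest peaks within 5 kb had enrichment values of 6.16, 6.12 and 6.20, at 4059, 3878 and 4491 bp. Klb at 4343 bp was the gene of the axis just inside the 5 kb limit. Nr5a2 at 7434 bp and Nr0b2 at 7456 bp came next and were outside it, also with any base of a peak counted. Their distances differ by 22 bp, much less than the width of either peak, so their order has little meaning.

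Fgfr4 (chr13:55152818-55168759) had 1 peak within 50 kb, 42619 bp past its end. That peak, chr13:55209234-55212836, was 3603 bp wide, the 16th widest of the list, and its enrichment value of 4.96 was below the list median. Its summit lay inside Nsd1, a histone methyltransferase gene, 1596 bp from an end.

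The transport genes carry bile acids through the ileal enterocyte. Slc10a2 encodes the apical sodium-dependent transporter that takes them up, Fabp6 the cytosolic bile acid binding protein, and Slc51a and Slc51b the subunits of the basolateral exporter. None of the 4 was occupied, against 26.4% of all protein-coding genes. No interval was computed for so few genes, and the count is a description. Slc10a2 (chr8:5083219-5105287) had the most distant summit of the 10, at 405036 bp, and 78.7% of protein-coding genes had one as near or nearer. That peak had an enrichment value of 4.62, and no other protein-coding gene reaches within 50 kb of Slc10a2.

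Fabp6 (chr11:43596040-43601562, minus strand) had 2 small peaks 10599 and 10927 bp past its end, inside Ccnjl, a cyclin J-like gene, and 1558 and 1886 bp from an end of it. The peaks, chr11:43585345-43585753 and chr11:43585029-43585194, were 409 and 166 bp wide and 150 bp apart. Their enrichment values were 4.99 and 3.08, and their −log10 p values were 9.39 and 3.92. The second was the weakest of the 16 peaks by both values, and 30 of 5775 peaks in the list had a −log10 p as low or lower.

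Slc51a (chr16:32475578-32487879) had 1 peak, 44871 bp away and 214 bp from the start of Pcyt1a, which encodes an enzyme of phosphatidylcholine synthesis. Its enrichment value was 5.76. Slc51b (chr9:65412753-65422773) had 3 peaks, with enrichment values of 6.43, 6.78 and 5.01 at 21379, 14170 and 38342 bp. These lay 278, 95 and 178 bp from annotated starts of Kbtbd13, Rasl12 and Spg21. Kbtbd13 encodes a BTB and kelch domain protein, Rasl12 a Ras-like protein, and Spg21 maspardin, an endosomal protein. At both exporter subunits the peaks thus lay at starts of other genes, and the nearest summits were 57172 bp from the start of Slc51a and 24190 bp from that of Slc51b.

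Ordered by distance, the nearest summits were those of Klb, Nr5a2, Nr0b2, Fabp6, Slc51b, Fgf15, Fgfr4, Slc51a, Nr1h4 and Slc10a2. The median over the 10 was 14227 bp, against 56174 bp over all protein-coding genes. Measured from the outer transcription start, the median was 42889 bp over the 9 genes with an annotated start, against 72809.5 bp over all such protein-coding genes. With the peaks at the score for an irreproducible discovery rate of 0.01 or above, the order of the medians turned, with 252038 bp over the 10 genes against 195154 bp over all protein-coding genes. Within 10 kb there were 3 of the 10, against 30.5% of protein-coding genes. The share of axis genes was thus below the background at 5 kb, close to it at 10 kb and above it at 50 kb. At each of these limits a summit counted whether or not it was nearer to a neighbour. These shares rest on 1, 3 and 8 of 10 genes. An interval was computed only at 5 kb, where it includes the background, so this order is a description.

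**Figure D2:**
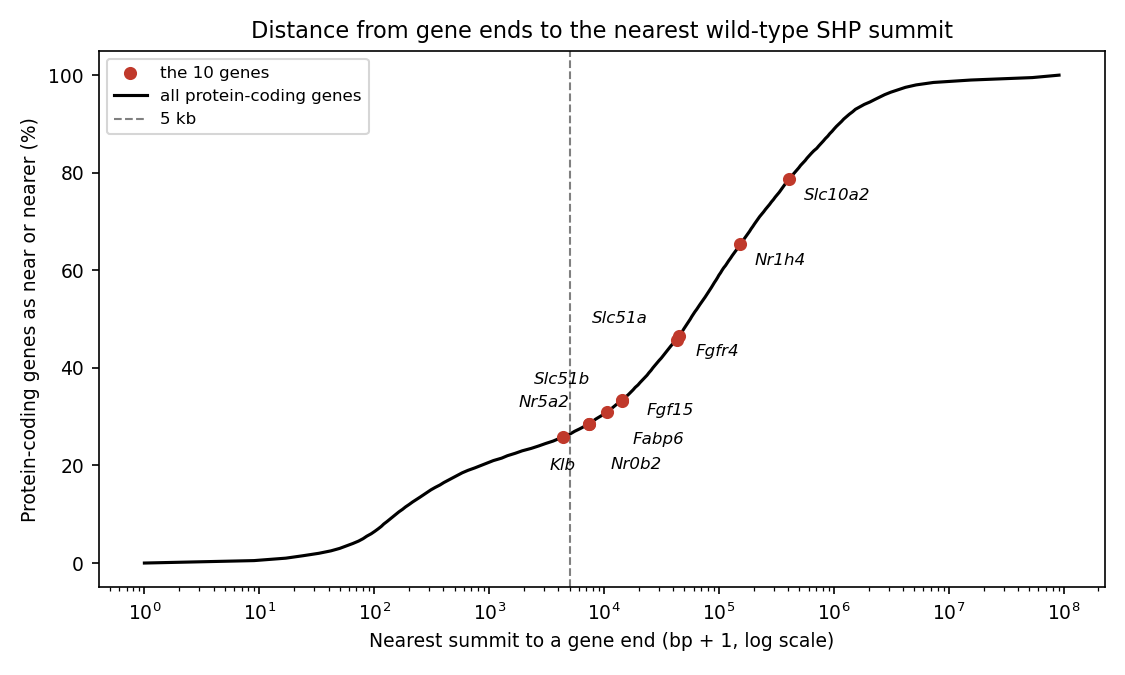
Cumulative share of genes, in percent, against the distance in bp (log axis) from a gene end to the nearest wild-type SHP summit. Red points are the 10 genes, of which Klb alone lies left of the dashed 5 kb line, and the black curve is all 21887 protein-coding genes.

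The 16 peaks were ordinary in strength. Their enrichment values ran from 3.08 to 7.70 with a median of 6.01, against 5.65 over the list, and 10 of the 16 were above the list median. The highest value in the list was 37.2. Widths had a median of 886 bp, against 978 bp over the list. Summits less than 1 kb from a gene end made up 9 of the 16 (56.2%), against 70.0% over the 5775 peaks. For 15 of the 16, at least 1 other peak of the list had exactly the same enrichment value and −log10 p. Their ranks in the list are therefore shared with other peaks.

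**Figure D3:**
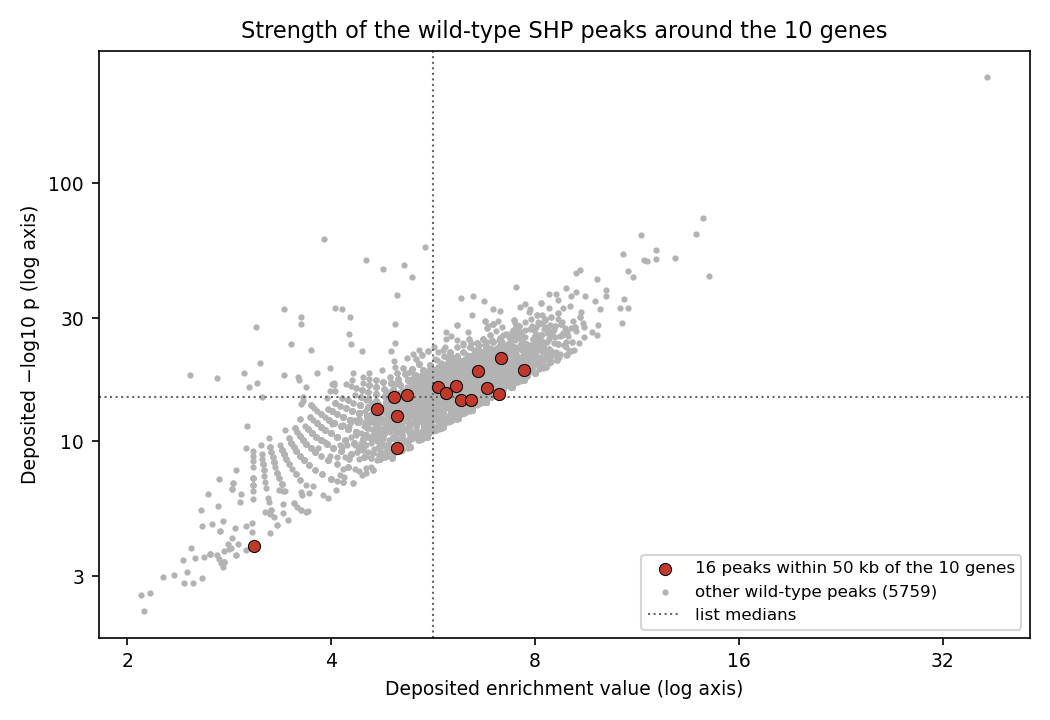
Enrichment value (horizontal, log axis) and −log10 p (vertical, log axis) of the wild-type peaks as deposited, with the 16 peaks within 50 kb of the 10 genes in red, the other 5759 in grey and list medians dotted. The lowest red points in −log10 p are the Fabp6 peaks at 3.92 and 9.39, and 10 of the 16 red points lie right of the enrichment median.

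The sequence at the starts of the axis genes was then compared with that of starts with a summit nearby. RefSeq promoter windows of 300 bases were available for 9 of the 10 genes, with 2 for Nr5a2, and for 21263 starts of protein-coding genes in all. The only Nr1h4 window is at a start inside the gene, 179441 bp from the nearest summit, so its outer end was not examined for sequence. The ratio of observed to expected CpG dinucleotides is high in CpG islands and low elsewhere. It had a median of 0.294 in the 10 axis windows (range 0.133 to 0.649), 0.848 in the 4475 windows with a summit within 1 kb of the start, and 0.412 in the 16788 windows with none. GC content had medians of 49.3%, 65.7% and 53.7% in these classes. Of windows with a CpG ratio under 0.2, 0.511% (24 of 4695) had a summit within 1 kb, and the windows of Fabp6, Slc51a, Slc51b, Nr0b2 and the outer start of Nr5a2 were in this class. That share was 3.21% for ratios from 0.2 to 0.4, 14.1% from 0.4 to 0.6, 30.5% from 0.6 to 0.8 and 44.7% above. Klb, Slc10a2 and the inner starts of Nr1h4 and Nr5a2 had ratios from 0.412 to 0.571, and Fgfr4 had the highest at 0.649. Among neighbour windows that a peak reached, the ratio was 1.25 at Rpl9, 0.813 at LTO1 and 0.742 at Nudc, and lower at Rasl12 (0.412) and Kbtbd13 (0.337). The part of base composition in these distances was not tested.

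**Figure D4:**
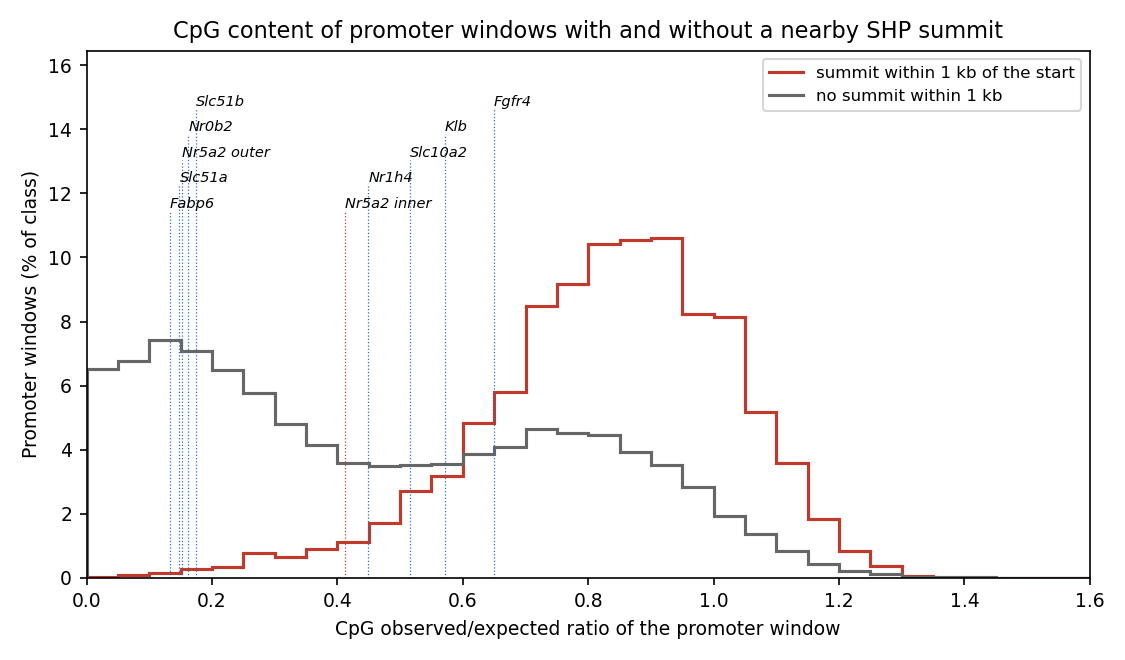
CpG observed/expected ratio of promoter windows (horizontal) against the percentage of windows in each class (vertical), for starts with a summit within 1 kb (red) and without one (grey). Dotted lines mark the 10 axis windows, red for the inner Nr5a2 start and blue for the others. The Nr1h4 window is also at an inner start. Of the 10 windows, 5 lie under 0.2, where starts with a nearby summit are rare.

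Motifs were searched on both strands by exact letters, as a description of these windows only. AGGTCA, the core site of many nuclear receptors, was in 4 of the 10 axis windows (Nr1h4, outer Nr5a2, Slc51a and Slc51b), in 10.4% of windows with a summit within 1 kb and in 15.9% of windows without. The longer LRH-1 type CAAGGTCA, which contains that core site, was in none of the 10, in 0.961% and in 1.44%. The HNF4 type CAAAGTCCA was also in none, with 0.223% and 0.512%. The GC box GGGCGG was in 2 (Fgfr4 and Nr0b2), 76.2% and 38.2%, and the E box CACGTG in 2 (Nr0b2 and Slc51a, the last with 3 matches), 11.4% and 6.89%. TATAAA was in 3 (Fabp6, Nr0b2 and outer Nr5a2), 5.09% and 14.6%, and the AP-1 letters TGACTCA in 1 (Slc51b), 2.35% and 5.27%. The ETS type CCGGAAGT was in none, 7.71% and 4.46%. Over all 21263 windows the shares were 14.7% for AGGTCA, 1.34% for the LRH-1 type, 0.451% for the HNF4 type, 46.2% for the GC box, 7.84% for the E box, 12.6% for TATAAA, 4.66% for AP-1 and 5.15% for ETS.

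The inverted repeat of AGGTCA with 1 spacer base, the arrangement to which FXR and its partner RXR bind, was searched with at most 2 mismatches. It was in 1 of the 10 axis windows, that of Fabp6, in 0.782% of windows with a summit within 1 kb, in 1.20% of windows without and in 1.11% of all. The Fabp6 window, chr11:43601513-43601812 on the minus strand, held 2 such repeats with 2 mismatches each, at positions −222 and −142 from the start, and a TATA match at −29. It is printed for these repeats. The nearest SHP summit to this start was 16121 bp away, in the peaks described above.
Fabp6: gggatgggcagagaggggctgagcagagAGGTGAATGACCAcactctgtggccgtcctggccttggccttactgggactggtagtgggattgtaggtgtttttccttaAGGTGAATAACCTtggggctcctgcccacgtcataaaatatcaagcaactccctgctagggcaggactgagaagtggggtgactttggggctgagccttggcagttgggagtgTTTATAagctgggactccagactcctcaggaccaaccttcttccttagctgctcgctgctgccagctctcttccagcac

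Other genes of bile acid biology were examined in 6 lists by role, with 108 genes in all. The share of occupied genes was higher than the background in the sensing, receptor and relay, regulator and partner lists. It was lower in the transport and synthesis lists. The intervals of the sensing, transport and synthesis lists include the background. All intervals cover counting error only and treat genes as independent, and the lists were not matched to the background in promoter composition. These lists were chosen with earlier results of the same data known, and the counts are a description. Bile acid sensing genes were occupied at 6 of 10 (60.0%, 95% exact interval 26.2 to 87.8), against 26.4% of protein-coding genes. Among them were Rxra (enrichment value 6.32), the partner of FXR, Rxrb (5.90), Vdr (5.41), the vitamin D receptor that also binds lithocholic acid, and S1pr2 (5.10), a membrane receptor for conjugated bile acids. Nr1h3 and Nr1h2, the LXR genes, completed the list, each with its strongest peak nearest to another gene. Nr1h2 also had a summit 219 bp from its outer start, while the nearest to the outer start of Nr1h3 was 19830 bp away. Gpbar1, the membrane bile acid receptor, had its nearest summit at 5279 bp.

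Transport genes other than the axis members were occupied at 2 of 14 (14.3%, interval 1.78 to 42.8), namely Abcc4 (3.79), an export pump, and Atp8b1 (5.15), a phospholipid flippase. Abcb11, the canalicular bile salt pump of the liver, had its nearest summit at 242869 bp. Synthesis genes were occupied at 2 of 18 (11.1%, interval 1.38 to 34.7). These were Slc27a2 (6.25), an acyl-CoA synthetase, and Amacr (7.09), a racemase, both at a gene end. Cyp7a1, the rate-limiting enzyme of bile acid synthesis in liver, and Cyp8b1, the enzyme of cholic acid formation, had nearest summits at 90160 and 56745 bp. The median distance was 43562 bp over the transport list and 74097 bp over the synthesis list, against 56174 bp over all protein-coding genes.

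FGF receptors and the signal relay below them were occupied at 14 of 18 (77.8%, interval 52.4 to 93.6). All 14 had a summit within 1 kb. Unlike Fgfr4, its paralogs Fgfr2 (4.68) and Fgfr3 (5.47) had summits 663 and 532 bp from the start. The adaptor gene Frs2 (6.52), the phosphatase gene Ptpn11 (5.29), and Map2k1 (6.50) of the MAP kinase cascade each had a peak at a gene end, as did Grb2, Sos1, Shc1, Map2k2, Src, Prkcz and Gsk3b. The Shc1 peak lay outside that gene and was nearest to Pygo2, and the nearest summit to the outer start of Shc1 was 11791 bp away. Fgfr1, Kl, Hras and Mapk3 had no summit within 5 kb.

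Regulators of Fgf15, Nr0b2 or Nr1h4 were occupied at 10 of 14 (71.4%, interval 41.9 to 91.6). Foxa2 (7.18) and Ppargc1a (7.02) had the highest enrichment values, and Cdx2 (5.54), a factor of intestinal identity, and Mafg (4.76), a repressor of bile acid synthesis genes, were among them, with Foxa1, Gata6, Klf15, Onecut1 and Srebf2. Hnf4a and Gata4 had nearest summits at 24960 and 26222 bp. Partners and cofactors of SHP were occupied at 24 of 34 (70.6%, interval 52.5 to 84.9), with 16 within 1 kb. They included the corepressor gene Ncor1 (5.35), the histone methyltransferase gene Ehmt2 (7.54) and the deacetylase gene Hdac1 (5.59). Nr5a1 (7.69), the closest relative of Nr5a2, had the highest enrichment value of the list, with the summit 4166 bp inside the gene. The demethylase gene Kdm1a and Hdac2 had none within 5 kb. Over the 6 lists, 58 of 108 genes (53.7%, interval 43.8 to 63.3) were occupied.

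**Figure D5:**
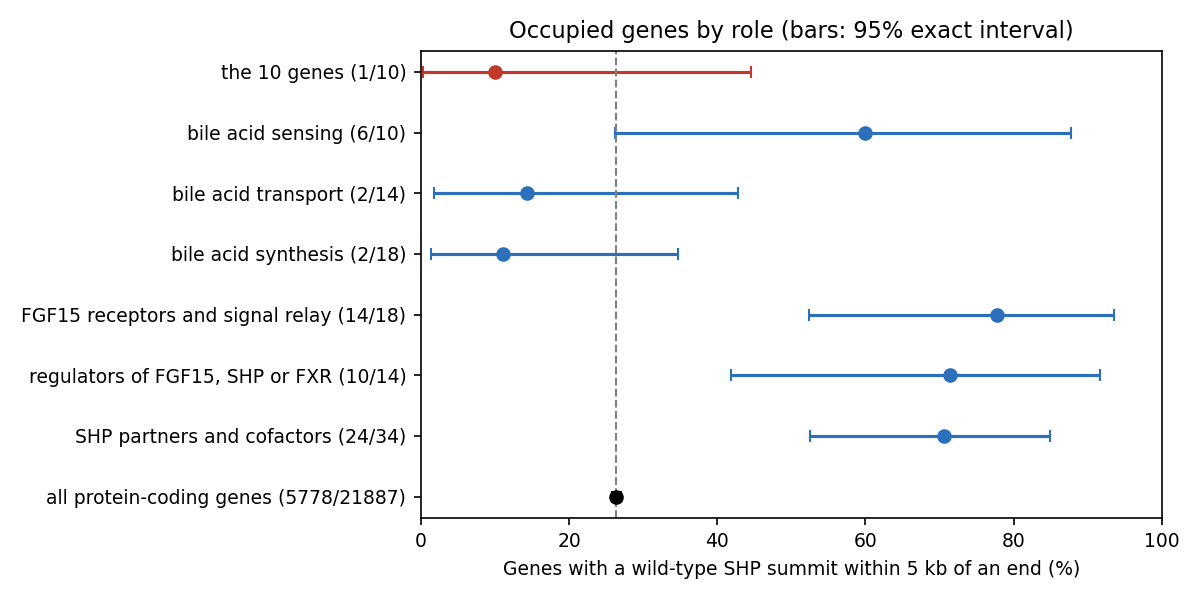
Percentage of genes with a wild-type SHP summit within 5 kb of an end, for the 10 axis genes (red), 6 role lists (blue) and all protein-coding genes (black, dashed line at 26.4%), with 95% exact binomial intervals for counting error only. The axis, transport and synthesis genes lie below the dashed line at 10%, 14.3% and 11.1%, with intervals that include it, and the other 4 lists lie above it.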

How the data were processed

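SHP ChIP-seq of mouse jejunum and ileum was analysed from the peak lists of 1 knockout and 1 wild-type sample. The input samples were not analysed here. CASAVA 1.4, BWA and mm10 are named in the submitters' processing notes. Of the peak caller, the pooling of sets and the use of input, nothing is given in the sources used here. Column meanings were taken from the narrowPeak format of 10 columns, since the files are without headers. The wild-type list carries in its deposited name a filter at an irreproducible discovery rate (IDR) of 0.05. The deposited signal (enrichment value), score, −log10 p and −log10 q are the authors' own values for each peak and were used within a list only. Gene ends, start and summit are in mm10 base pairs.

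Starts were converted to 1-based positions, and summits taken as start plus offset. Distances to gene ends were computed with Python 3.11.15, numpy 2.4.6 and pandas 2.3.3, with RefSeq genes of GRCm38.p6. Strand and starts came from the RefSeq promoter table, which lacks 4395 protein-coding genes, Fgf15 among them. Intervals are exact (Clopper-Pearson, scipy 1.17.1). Distance and motif code was tested on simulated data. Genes named are the 10 members, the gene nearest to each peak around them, occupied genes of the lists, and the 3 genes most like an occupied member by enrichment value, width and distance. List genes named without a peak were chosen after their values were seen. The members and lists were chosen with earlier results of these data known. The sequence under the peaks was not used here. Some genes of the lists are counted but not reported here by name.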

Additional observations from a re-analysis of the deposited data

How the results depend on the processing

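With 1 list per genotype, no replicate could be left out and replicate error is unknown. No paired analysis was possible because each genotype had 1 list. The count of occupied axis genes was 1 (Klb) with any base of a peak counted (26.9% of all protein-coding genes). It was also 1 (Klb) at or above the median −log10 p (14.8%) and on autosomes alone (27.9%). It was 0 within 1 kb (20.7% of all protein-coding genes), 3 within 10 kb (30.5%), 8 within 50 kb (48.2%), 0 of 9 with the outer transcription start alone (23.7%), and 2 with summits inside the gene (28.3%). It was also 0 with each summit given to its nearest gene (21.0%), with the enrichment values from the 75th percentile up (6.89%), and at the score for an IDR of 0.01 (12.7%). From any annotated start, an alternative chosen after seeing the data, it was 1 of 9 (24.3%) and the gene was Nr5a2. Of all protein-coding genes, 10548 were occupied within 50 kb, 3230 at or above the median −log10 p, 1507 with the enrichment values from the 75th percentile up and 2769 at the stricter IDR. Of the 108 other bile acid genes, these 3 peak thresholds left 35, 20 and 38. The median nearest distance of the axis genes was 42889 bp from outer or any annotated starts, and 28451.5, 307032.5 and 252038 bp under the 3 thresholds, where that of all protein-coding genes with a peak on their chromosome was 150277, 364461 and 195154 bp. Of the 16 peaks around the axis genes, 10 were within 25 kb, and 10, 5 and 5 were left under the thresholds. The stricter thresholds keep fewer peaks by construction, namely 2915, 1447 and 2467 of the 5775 in the list. Alternatives based on starts also leave out Fgf15. The cause of the other moves was not tested.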
